A study of Arabidopsis thaliana with 4 samples.

Results

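The SMALL AUXIN UP RNA (SAUR) family of Arabidopsis thaliana was examined for peaks of chromatin recovered with APOLO, a long noncoding RNA. The members were all nuclear protein-coding genes whose symbol or synonym in the gene table is SAUR followed by a number, which gave 80 of 27444 genes. The name SAUR21 is carried by 2 loci, AT5G18030 among its neighbours SAUR20 and SAUR22 and the unlinked AT5G01830. The second of these was kept because it meets the naming rule, but it is probably not a gene for a SAUR protein. SAUR68 is likewise carried by 2 loci, AT1G29490 and AT1G29510, and the second of these also has the name SAUR67. A gene was counted in a peak list when a peak overlapped its body or the 1 kb on either side, and the gene table gives no strand, so upstream and downstream were not told apart.

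ChIRP-seq (chromatin isolation by RNA purification, read out by sequencing) pulls down the DNA that lies near an RNA with oligonucleotides complementary to that RNA. APOLO was targeted with either of the probe sets ODD and EVEN, and the LACZ probes served as the control. All 4 libraries came from Col-0 plants that carried the full-length APOLO region driven by the 35S promoter in the vector pB7WG2 and were grown in long days on solid medium, so APOLO was overexpressed in the LACZ sample as well, and plants without the transgene are not analysed here. The ODD probes were used in 2 libraries, ODD 1 and ODD 2, and EVEN 1 and LACZ 1 were 1 library each.

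SAUR genes are short genes, mostly without introns, and many are transcribed within minutes of auxin treatment. In the best studied route, SAUR proteins of the SAUR19 type bind and inhibit PP2C.D phosphatases, which keeps plasma membrane H+-ATPases phosphorylated and active, and the acidified cell wall then loosens and the cell expands. APOLO is itself an auxin-responsive RNA, best known as the neighbour and regulator of PINOID, a kinase that directs auxin transport.

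On the nuclear chromosomes ODD 1 had 16126 peaks, ODD 2 had 58146, EVEN 1 had 20470 and LACZ 1 had 12546. Depth is known only as a relative estimate, which takes the shortest peak of a list as its fragment length. This was not checked. With ODD 1 set to 1, the estimated number of fragments was 2.94 in ODD 2, 2.19 in EVEN 1 and 1.31 in LACZ 1. The APOLO gene itself had a peak with a fold enrichment of 16.6 in ODD 1, 12.4 in ODD 2 and 14.1 in EVEN 1, and no peak in LACZ 1. The ODD and EVEN probes match this gene, which the plants also carried as a transgene, so its peak does not measure how other DNA was recovered. Fold enrichments are the authors' values over the local background of 1 library, and they rank peaks only within that library's list. EVEN and LACZ had no replicate and genes are not replicates of a probe set, so no p-value is given. Intervals are exact (Clopper-Pearson) 95% binomial intervals and cover counting error only.

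Fewer SAUR genes than protein-coding genes at large had a peak in ODD 1, ODD 2 and LACZ 1, and a similar share had one in EVEN 1. In ODD 1, 27 of 80 SAUR genes (33.8%, interval 23.6 to 45.2%) had a peak, against 48.9% of all protein-coding genes. In ODD 2, 64 SAUR genes (80%, 69.6 to 88.1%) had one, against 92.8%. In EVEN 1 there were 43 SAUR genes (53.8%, 42.2 to 65.0%), against 55.3%. In LACZ 1 there were 19 (23.8%, 14.9 to 34.6%), against 41.3%. Without AT5G01830, which had a peak in every list, 26 of 79 members had one in ODD 1, 63 in ODD 2, 42 in EVEN 1, and 18 in LACZ 1.

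Gene length was unequal between these sets. SAUR genes had a median length of 815 bp, against 2078 bp over all protein-coding genes, and a longer gene offers a longer window to a peak. Among the 1933 protein-coding genes whose length lay in the interquartile range of the SAUR genes, the share with a peak was 34.4% (ODD 1), 84.4% (ODD 2), 45.2% (EVEN 1) and 30.6% (LACZ 1). All 4 of these shares lie inside the intervals of the SAUR genes, so at this number of genes the family was not distinguishable from genes of like length by the share with a peak. The windows of 27 SAUR genes overlapped that of another member, and 1 peak can then count for several genes, so the intervals are too narrow.

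**Figure D1:**
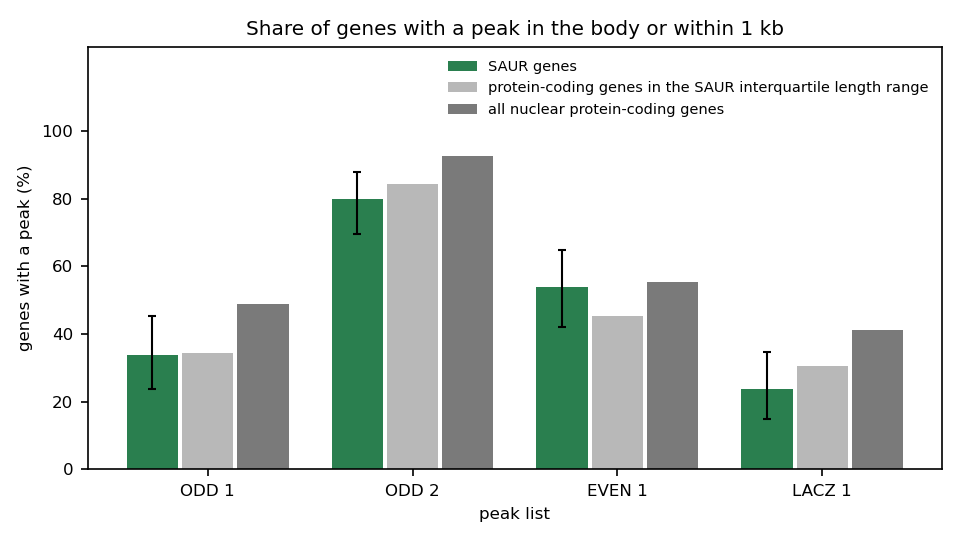
Share of genes with a peak in the gene body or within 1 kb (vertical axis, %) in each of the 4 lists (horizontal axis), for SAUR genes with exact 95% intervals as error bars, genes in the SAUR interquartile length range, and all nuclear protein-coding genes. The SAUR share is below that of all genes in ODD 1 (33.8 against 48.9%), ODD 2 (80 against 92.8%) and LACZ 1 (23.8 against 41.3%), and the share of genes of like length is within the SAUR interval in all 4 lists.

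The 80 genes fell into 12 combinations of lists, the absence from all 4 included. The most frequent was ODD 2 with EVEN 1 alone, held by 17 SAUR genes (21.2%), by 12.4% of all genes and by 13.5% of genes of like length; it included SAUR40, SAUR71 and SAUR72 of the SAUR41 group, which promotes cell expansion, and SAUR17, a gene of the apical hook in darkness. Both ODD lists alone held 13 SAUR genes (16.2%, against 11.0% of all genes and 9.78% of genes of like length), among them SAUR19, SAUR27, SAUR28, SAUR31 and SAUR50. ODD 2 alone held 12 (15.0%, against 14.3% of all genes and 20.3% of genes of like length), with SAUR22, SAUR23, SAUR36 and SAUR41 among them. SAUR36 is known for hypocotyl elongation and leaf senescence.

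The combinations that include a LACZ 1 peak held 19 genes. Peaks in all 4 lists were found at 7 SAUR genes (8.75%, against 16.0% of all genes and 8.48% of genes of like length), namely SAUR21 (AT5G01830), SAUR37, SAUR38, SAUR49, SAUR55, SAUR61 and SAUR78. ODD 2, EVEN 1 and LACZ 1 without ODD 1 held 9 (11.2%, against 10.2% of all genes and 8.33% of genes of like length). SAUR20 was the only member with both ODD lists and LACZ 1 (6.52% of all genes, 3.78% of genes of like length), SAUR74 the only one with ODD 2 and LACZ 1 (7.16% of all genes, 8.28% of genes of like length), and SAUR62, a member with a role in pollen tube growth, the only one with LACZ 1 alone (0.940% of all genes, 1.29% of genes of like length).

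Peaks in the 3 APOLO-probe lists and not in LACZ 1 were found at 4 SAUR genes (5%, against 15.2% of all genes and 12.0% of genes of like length), which were SAUR51, SAUR57, SAUR59 and SAUR70. Only EVEN 1 had a peak at 4 others (5%, against 1.03% of all genes and 2.43% of genes of like length), which were SAUR5, SAUR25, SAUR33 and SAUR63. ODD 1 with EVEN 1 and without ODD 2, the deeper ODD library by estimate, was held by SAUR16 and SAUR54 (2.50%). This combination was found at 0.0292% of all genes and 0.0517% of genes of like length. No list had a peak at 9 SAUR genes (11.2%, against 4.62% of all genes and 11.1% of genes of like length). At least 1 APOLO-probe peak and no LACZ 1 peak was the state of 52 SAUR genes (65.0%, interval 53.5 to 75.3%), against 54.0% of all genes and 58.3% of genes of like length.

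Most SAUR genes with an ODD 1 peak also had an ODD 2 peak, and most with an ODD 2 peak had none in ODD 1. Of the 27 SAUR genes with an ODD 1 peak, 25 also had an ODD 2 peak (31.2% of the family, against 48.8% of all genes and 34.0% of genes of like length), and the other 2 were SAUR16 and SAUR54. These 25 were among 64 SAUR genes with an ODD 2 peak. Counted as peaks, 25 of the 28 distinct ODD 1 peaks at SAUR genes (89.3%) overlapped an ODD 2 peak, against 94.8% of the whole ODD 1 list. In the other direction, 26 of the 97 ODD 2 peaks (26.8%) had an ODD 1 peak on them, against 24.7% of the ODD 2 list. Only 7 of the 28 (25%) overlapped an EVEN 1 peak, against 24.0% of the list, and 3 (10.7%) overlapped a LACZ 1 peak, against 13.4%. The median peak width of the whole lists was 103 bp in ODD 1, 181 bp in ODD 2, 92 bp in EVEN 1 and 269 bp in LACZ 1. A wider peak has more room to overlap another, so overlap counts of different lists are not on one scale.

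**Figure D2:**
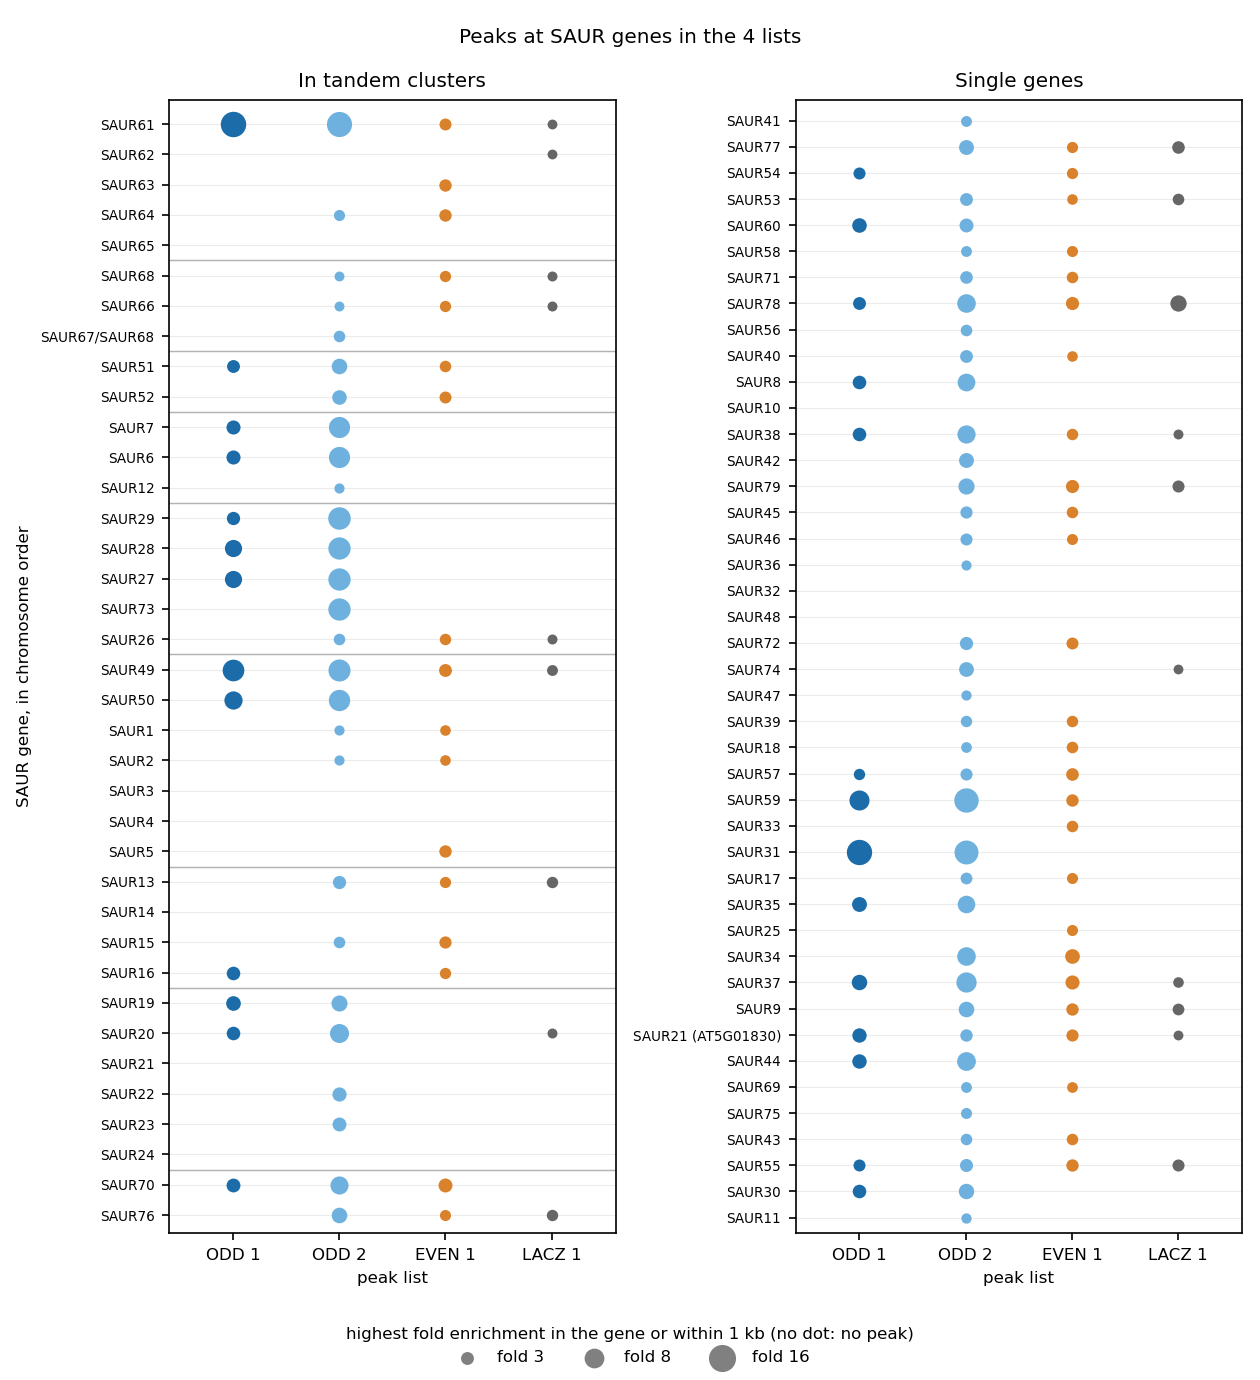
Each row is a SAUR gene in chromosome order (left panel, genes in tandem clusters with lines between clusters; right panel, single genes) and each column a peak list; the area of a dot grows with the highest fold enrichment in the gene or within 1 kb, and no dot means no peak. The largest ODD 1 dots are at SAUR61 (16.6) and SAUR31 (16.4), the EVEN 1 dots reach no more than 5.52 at SAUR34, and the largest LACZ 1 dot is at SAUR78 (6.80).

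By median fold, the peaks at SAUR genes were about as strong as all peaks of the same list. The 28 ODD 1 peaks had a median fold of 5.0, against 4.93 in the whole list, and the 97 ODD 2 peaks 3.58, against 3.44. The 54 EVEN 1 peaks had a median fold of 3.41, as had the whole list, and the 17 LACZ 1 peaks 3.06, against 2.93. With −log10 q of at least 5, 46.4% of the ODD 1 peaks remained (50.8% of the list), 71.1% of those of ODD 2 (67.8%), 9.26% of those of EVEN 1 (17.3%) and 47.1% of those of LACZ 1 (35.5%). Most EVEN 1 peaks at SAUR genes were thus weak ones, and all but 5 fell short of that threshold.

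Among the 4 lists, EVEN 1 had the highest share of its summits at SAUR genes inside the SAUR gene itself. Of the 54 EVEN 1 peaks, 40 had their summit inside a SAUR gene, 11 in another protein-coding gene, 1 in a noncoding gene and 2 between genes. Of the 28 ODD 1 peaks, 14 had it inside a SAUR gene, 6 in another protein-coding gene and 8 between genes. The 97 ODD 2 peaks divided into 57 inside a SAUR gene, 21 in another protein-coding gene, 1 in a noncoding gene and 18 between genes. Of the 17 LACZ 1 peaks, 10 were inside a SAUR gene, 5 in another protein-coding gene and 2 between genes. Over the windows of all protein-coding genes, EVEN 1 also had the highest share in the body of any such gene, with 15866 of 17209 summits. There it was 11589 of 13339 in ODD 1, 42707 of 48125 in ODD 2 and 9076 of 9940 in LACZ 1.

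Per 100 kb of SAUR gene body there were 19.5 summits in ODD 1, 79.6 in ODD 2, 55.8 in EVEN 1 and 14.0 in LACZ 1. In bodies of protein-coding genes of like length there were 22.5, 84.7, 41.7 and 18.3, in the same order of lists, and over all protein-coding gene bodies 18.0, 66.2, 24.6 and 14.1. EVEN 1 was the list whose summits were denser in SAUR bodies than in both comparison sets. In the 1 kb flanks of SAUR genes that lie outside any protein-coding gene the densities were 6.94, 14.7, 2.60 and 1.74, against 7.20, 22.3, 5.53 and 3.55 in the flanks of all genes. These densities are a description of 1 library each, and no difference between them was tested.

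**Figure D3:**
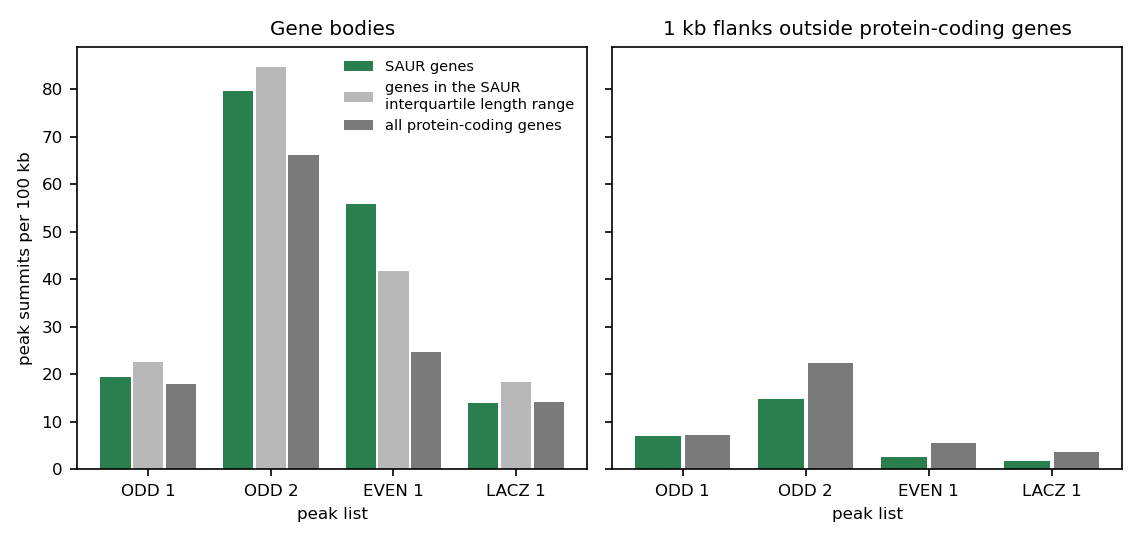
Peak summits per 100 kb (vertical axis) in gene bodies (left) and in the parts of the 1 kb flanks outside protein-coding genes (right) for each list (horizontal axis); bars are SAUR genes, genes in the SAUR interquartile length range (bodies only) and all protein-coding genes, with no error bars since each list is 1 library. In gene bodies the EVEN 1 bar of SAUR genes (55.8) is above those of genes of like length (41.7) and of all genes (24.6), while the SAUR bars of the other 3 lists are below those of genes of like length.

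Within SAUR bodies the EVEN 1 summits lay towards the middle of the gene about as often as in genes of like length. Of the 40 summits, 28 (70.0%) fell in the central 50% of the body, against 68.0% in genes of like length and 48.3% over all genes. In ODD 1, 9 of 14 did so (64.3%, against 59.1% in genes of like length), and in ODD 2, 42 of 57 (73.7%, against 61.9%). Of the 10 LACZ 1 summits in SAUR bodies, 5 were central (50%, against 65.6%). Only 4 of the 40 EVEN 1 peaks with a summit in a SAUR body overlapped an ODD 1 peak (10%, against 21.9% in genes of like length), and 22 overlapped an ODD 2 peak (55%, against 70.5%).

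With the gene body alone as the window, 15 SAUR genes had a peak in ODD 1 (34.4% of all genes did), 49 in ODD 2 (80.2%), 28 in EVEN 1 (41.6%) and 10 in LACZ 1 (29.4%). EVEN 1 thus had a peak in the body of more SAUR genes than ODD 1, as it had over all genes. The order of the 4 lists was that of the wider window and that of all genes. No share of genes of like length is given for this window.

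A region was called a candidate where an ODD 1 peak overlapped an EVEN 1 peak by at least 1 bp and no LACZ 1 peak. Candidate regions lay at 5 SAUR genes (6.25%, interval 2.06 to 14.0%), against 11.1% of all genes and 9.52% of genes of like length. These were SAUR61, SAUR38, SAUR57, SAUR49 and SAUR16, with 1 region each. In 3 of the 5 the ODD 1 summit was in a neighbouring protein-coding gene, and in SAUR38 and SAUR16 it was in the SAUR gene. Positions of peaks below are on TAIR10, counted from 1.

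SAUR61 belongs to the group of SAUR61 to SAUR68, which promotes elongation of hypocotyls and stamen filaments. Its ODD 1 peak (chromosome 1, 10300988 to 10301111) had a fold of 16.6 and rank 61 in the ODD 1 list. It had a pileup of 34 fragments over an estimated background of 1.11. Backgrounds were worked out from pileup and fold, where the fold is taken with 1 added to pileup and background. The value of 1.11 is the lowest of the ODD 1 list, as 6.55 is of ODD 2 and 2.81 of EVEN 1. The ODD 2 peak (10300979 to 10301188) had a fold of 16.2 and rank 12 of the whole ODD 2 list, with 121 fragments over 6.55. The EVEN 1 peak (10301024 to 10301110) was modest, with a fold of 3.68 from 13 fragments over 2.81. All 3 summits were in the adjacent gene AT1G29418, 344, 311 and 306 bp from SAUR61. A LACZ 1 peak with a fold of 2.49 lay inside SAUR61 and touched none of them.

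SAUR49 is a member linked to leaf senescence. Its ODD 1 peak (chromosome 4, 16576417 to 16576663) had a fold of 12.0, and the EVEN 1 peak that overlapped it one of 4.26. The ODD 2 peak there had a fold of 12.5 and was wide enough, at 694 bp, to overlap a LACZ 1 peak with a fold of 3.06, so the region was no candidate with ODD 2. The EVEN 1 peak overlapped the same LACZ 1 peak. All 4 summits were in ASE2, a gene of purine synthesis, 690 bp from SAUR49 in ODD 1 and 990 bp in LACZ 1.

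The SAUR38 region lay inside the gene. The ODD 1 peak (chromosome 2, 10378046 to 10378376) had a fold of 4.71, the ODD 2 peak one of 7.39, and the 2 EVEN 1 peaks under the ODD 2 peak had 3.39 and 2.89. A LACZ 1 peak (10378468 to 10378740, fold 2.54) began in the same gene just beyond the ODD 2 peak. The region therefore had signal from APOLO probes and, within 500 bp, from control probes.

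SAUR16, which together with SAUR50 takes part in the light-induced opening of cotyledons, had an ODD 1 peak (chromosome 4, 18130400 to 18130446) with a fold of 4.73 and an EVEN 1 peak with 3.28, both in the gene. ODD 2 had no peak in SAUR16 or within 1 kb, and neither had LACZ 1. The ODD 1 peak rested on 9 fragments over 1.11 and the EVEN 1 peak on 13 over 3.27.

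The SAUR57 region had the lowest ODD 1 fold of the 5 and the second highest EVEN 1 fold. Its ODD 1 peak (chromosome 3, 19744236 to 19744303) had a fold of 3.31 from 6 fragments over 1.11, which placed it at 95.9% of the way down the ODD 1 list. The ODD 2 peak had a fold of 3.76 and the EVEN 1 peak 4.10. The 3 summits were in PAL2, which encodes a phenylalanine ammonia-lyase, and LACZ 1 had no peak there.

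**Figure D4:**
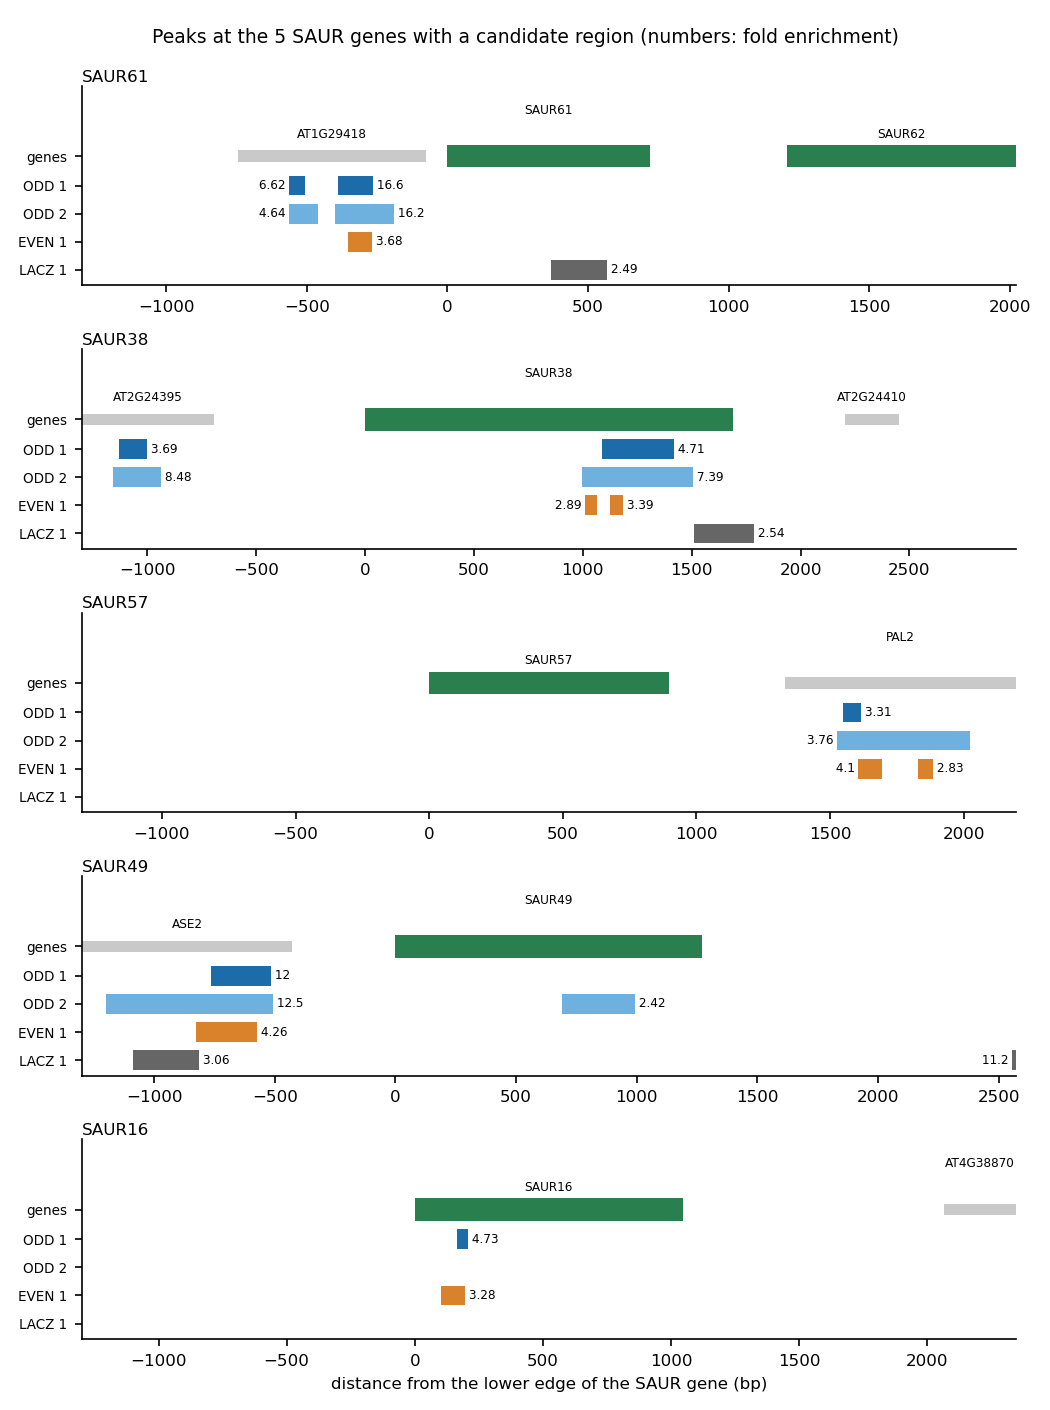
Maps of the 5 SAUR genes with a candidate region, with distance from the lower edge of the SAUR gene in bp on the horizontal axis, SAUR genes in green, other genes as thin grey bars, and 1 row of peaks for each list; numbers are the authors' fold enrichments, left out where there is no room. At SAUR61, SAUR57 and SAUR49 the stacked ODD and EVEN peaks lie over the neighbouring gene, and at SAUR38 and SAUR16 they lie in the SAUR gene.

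The count of candidates depended on the library and the threshold. With ODD 2 in place of ODD 1 there were 18 SAUR genes at 16 regions (22.5%, interval 13.9 to 33.2%), against 31.9% of all genes and 26.8% of genes of like length. SAUR61, SAUR38 and SAUR57 were candidates with both libraries. With −log10 q of at least 5 in every list a single SAUR gene was left (1.25%, against 2.98% of all genes). This was SAUR37, whose LACZ 1 peak fell below that threshold.

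Of the 16 regions made with ODD 2, 11 had their summit in a SAUR gene and 5 in a neighbouring protein-coding gene. The 11 genes were SAUR66, SAUR58, SAUR71, SAUR51, SAUR40, SAUR38, SAUR45, SAUR72, SAUR39, SAUR18 and SAUR17. The SAUR41 group has 4 members, SAUR40, SAUR41, SAUR71 and SAUR72, a grouping singled out here after its values were seen. SAUR40 had an ODD 2 peak of fold 4.24 in its body over 2 EVEN 1 peaks of 2.88 and 2.87. SAUR71 had an ODD 2 peak of 4.11 over an EVEN 1 peak of 3.41, and SAUR72 one of 4.50 over one of 3.68. SAUR41 itself had an ODD 2 peak of 3.05 and no EVEN 1 peak. None of the 4 had an ODD 1 or a LACZ 1 peak.

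Apart from SAUR61 and SAUR49, the members with the highest ODD folds had ODD peaks that overlapped no EVEN 1 peak, as was the case for most peaks of both ODD lists (24.0% of all ODD 1 peaks and 19.1% of all ODD 2 peaks overlapped one). SAUR31 had an ODD 1 peak (chromosome 4, 366556 to 366841) with a fold of 16.4 and rank 72, and an ODD 2 peak (366535 to 366857) with 14.7 and rank 69. Both were inside the gene, on 37 fragments over 1.32 in ODD 1 and 110 over 6.55 in ODD 2, and neither EVEN 1 nor LACZ 1 had a peak in SAUR31 or within 1 kb. Of the members among the 5 highest folds of both ODD lists (SAUR61, SAUR31 and SAUR59), SAUR31 was the one with that peak inside its own gene.

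SAUR59 had ODD peaks between genes, 836 bp from the gene in ODD 1 (chromosome 3, 22436844 to 22437021) and 901 bp in ODD 2 (22436758 to 22437065). Their folds were 10.3 in ODD 1 and 15.2 in ODD 2. EVEN 1 had 2 peaks in the body of SAUR59, with folds of 3.94 and 3.68, apart from these ODD peaks, so the gene had peaks in all 3 APOLO-probe lists and no region common to ODD and EVEN.

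SAUR50 had a peak inside the gene with a fold of 8.51 in ODD 1 (chromosome 4, 16582693 to 16582817) and 11.7 in ODD 2, and none in EVEN 1 or LACZ 1. SAUR8, SAUR30 and SAUR35 had the same pattern at lower folds: SAUR8 had 4.73 in ODD 1 and 8.08 in ODD 2, SAUR30 4.73 and 6.09, and SAUR35 5.67 and 7.95. SAUR44 had 5.32 in ODD 1 and 9.03 in ODD 2, at a place where it overlaps ADK2, which encodes an adenosine kinase.

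The highest EVEN 1 folds at SAUR genes were found at SAUR34, SAUR37, SAUR70, SAUR78 and SAUR79. The SAUR34 peak (chromosome 4, 11908775 to 11908975) had 5.52 and overlapped an ODD 2 peak of 8.88, and both summits were in the adjacent gene AT4G22630. The SAUR70 peak (chromosome 5, 7043817 to 7043896, fold 4.98) was inside the gene and overlapped no peak of another list, although an ODD 1 peak of 4.92 and an ODD 2 peak of 8.39 lay further along in SAUR70. The SAUR79 peak of 4.41 was in LEA18, a late embryogenesis abundant protein gene, and overlapped an ODD 2 peak of 2.97 and a LACZ 1 peak of 3.73.

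SAUR37 and SAUR78 had peaks of all 4 lists on the same spot inside the gene. SAUR37 had folds of 6.15 in ODD 1, 10.5 in ODD 2 and 5.11 in EVEN 1, and its LACZ 1 peak had 2.88. SAUR78, which has been tied to ethylene receptor signalling together with SAUR76, had folds of 4.26 in ODD 1 and 8.88 in ODD 2, and 3.72 in the EVEN 1 peak there. Its LACZ 1 peak (chromosome 1, 27264903 to 27265299) had 6.80 and rank 239, the highest of any SAUR gene in that list. A separate EVEN 1 peak of 4.46 lay 984 bp away in AT1G72420 and overlapped an ODD 2 peak of 3.31 and no LACZ 1 peak.

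The other genes of the 4-list group had control peaks in another arrangement. SAUR55 had 2 EVEN 1 peaks (3.15 and 3.92) under 1 LACZ 1 peak of 3.73 in its body, and ODD peaks of 3.70 in ODD 1 and 4.37 in ODD 2 between genes, 796 and 854 bp from SAUR55. SAUR21 (AT5G01830), which is probably not a SAUR protein gene, is the longest member, at 2865 bp. Its LACZ 1 peak of 2.49 overlapped an EVEN 1 peak of 3.79 and an ODD 2 peak of 2.48, and its ODD 1 peaks of 5.28 and 3.55 lay outside the gene.

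Of the 17 LACZ 1 peaks at SAUR genes, 11 (64.7%) overlapped an EVEN 1 peak, against 26.6% of the whole LACZ 1 list. An ODD 2 peak was overlapped by 12 (70.6%, against 56.0%) and an ODD 1 peak by 3 (17.6%, against 15.6%). Seen from EVEN 1, 12 of its 54 peaks (22.2%) overlapped a LACZ 1 peak, against 18.6% of its list. Of the 10 LACZ 1 peaks with a summit in a SAUR body, 7 overlapped an EVEN 1 peak. In genes of like length the share was 41.7%, and over all genes 26.5%. The 11 peaks are few, and their sharing between EVEN 1 and LACZ 1 was not tested. SAUR9, like SAUR19 an activator of the H+-ATPase route, was one such gene, with 6.23 in ODD 2, 3.94 in EVEN 1 and 3.55 in LACZ 1 on 1 spot in the gene. SAUR77 had EVEN 1 (3.23) and LACZ 1 (4.07) peaks that overlapped each other in the adjacent gene AT1G17350.

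Tandem clusters were taken as runs of at least 2 SAUR genes with gaps of at most 10 kb. There were 9 clusters with 37 members, and 43 members were single. In ODD 1, 13 clustered genes (35.1%) and 14 single genes (32.6%) had a peak. In ODD 2, it was 27 clustered (73.0%) and 37 single genes (86.0%), in EVEN 1 17 (45.9%) and 26 (60.5%), and in LACZ 1 9 (24.3%) and 10 (23.3%). No list had a peak at 6 clustered genes and at 3 single genes. These differences were not tested, since neighbouring genes share peaks. Clustered genes were also shorter, with a median length of 760 bp against 872 bp in single genes.

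The cluster of SAUR19 to SAUR24 on chromosome 5 holds the genes for which growth by acidification is best known. Over its 21.5 kb there were 2 ODD 1 peaks, 7 ODD 2 peaks, no EVEN 1 peak and 1 LACZ 1 peak in the genes or within 1 kb of them. SAUR19 had a peak inside the gene in ODD 1 (5.51) and in ODD 2 (6.62). The ODD peaks of SAUR20 were 885 bp from the gene in ODD 1 (4.73) and 937 bp in ODD 2 (9.27), and a LACZ 1 peak of 2.55 overlapped both. SAUR22 and SAUR23 had ODD 2 peaks alone, the highest with a fold of 5.17 next to SAUR22 and 4.98 in SAUR23. SAUR21 (AT5G18030) and SAUR24 had no peak in any list.

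In the chromosome 1 cluster of SAUR61 to SAUR65, the ODD peaks were concentrated at SAUR61. SAUR63, which gives longer hypocotyls and filaments when stabilised, had no ODD peak and an EVEN 1 peak of 3.94 in the gene, which is also within 1 kb of SAUR64. SAUR64 had an ODD 2 peak of 3.18 in its body. SAUR62 was reached only by the LACZ 1 peak of SAUR61, and SAUR65 by none.

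The nearby cluster of SAUR68 (AT1G29490), SAUR66 and SAUR67/SAUR68 (AT1G29510) had no ODD 1 peak. An ODD 2 peak of 2.52 in SAUR66, with an EVEN 1 peak of 3.26 on it, lay within 1 kb of both neighbours and made all 3 genes candidates with ODD 2. This was 1 region counted at 3 genes. A LACZ 1 peak of 2.56 lay inside SAUR68 (AT1G29490), reached to within 1 kb of SAUR66 and overlapped no peak of another list. Another ODD 2 peak, of 3.44, had its summit in AT1G29520, 900 bp from AT1G29510.

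On chromosome 3, SAUR29, SAUR28, SAUR27, SAUR73 and SAUR26 form a cluster in which SAUR26, SAUR27 and SAUR28 are known for growth responses to temperature. An intergenic peak between SAUR28 and SAUR27 had a fold of 7.57 in ODD 1 and 12.7 in ODD 2 (chromosome 3, 980918 to 981280), with its ODD 1 summit 46 bp from SAUR27. A peak at SAUR29 had 4.52 in ODD 1 and 13.0 in ODD 2 (975663 to 976070), with its summit in EDA30. SAUR73 and SAUR26 had weak ODD 2 peaks in the gene, of 3.44 and 3.31. The cluster's single EVEN 1 peak (3.38) and single LACZ 1 peak (2.56) overlapped each other 551 and 572 bp from SAUR26.

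The largest cluster, of 22.4 kb on chromosome 4, holds SAUR49, SAUR50 and SAUR1 to SAUR5. Within the genes and 1 kb of them, both ODD libraries had their strong peaks at SAUR49 and SAUR50. Farther than 1 kb from any SAUR gene, LACZ 1 had a peak of fold 11.15 between SAUR49 and SAUR50. Between SAUR50 and SAUR1, also outside the windows, there were peaks of 4.73 in ODD 1, 8.215 in ODD 2 and 3.94 in EVEN 1. SAUR1 had an ODD 2 peak of 2.65 in the gene and SAUR2 an EVEN 1 peak of 2.89, each within 1 kb of the other gene as well. SAUR3 and SAUR4 had no peak, and SAUR5 had an EVEN 1 peak of 3.94 that lay in MRL1.

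SAUR13 to SAUR16 form a cluster on the same chromosome. Apart from the SAUR16 peaks, ODD 1 had none there. SAUR15, an auxin-induced gene of roots also known as SAUR-AC1, had an ODD 2 peak of 3.44 and an EVEN 1 peak of 3.83, 1027 and 785 bp from the gene and apart from each other. SAUR13 had 3 ODD 2 peaks, of which the one of fold 3.05 overlapped an EVEN 1 peak of 3.23 and the one with 4.50 overlapped a LACZ 1 peak of 3.34; these 4 peaks had their summits in CRK26, a receptor-like kinase gene. SAUR14 had no peak.

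The chromosome 2 cluster of SAUR7, SAUR6 and SAUR12 had peaks in the ODD lists alone. A peak in SAUR7 had a fold of 5.08 in ODD 1 and 11.5 in ODD 2, and its summits lay 309 bp (ODD 1) and 303 bp (ODD 2) from SAUR6. SAUR12 had an ODD 2 peak of 2.65. The other clusters were pairs. SAUR51 had ODD peaks on both sides of the gene and an ODD 2 peak of 2.61 with an EVEN 1 peak of 3.41 inside it, and SAUR52 had EVEN 1 peaks of 3.41 and 3.68 inside it that overlapped no other list. SAUR76, the neighbour of SAUR70, had an ODD 2 peak of 6.23 over 2 EVEN 1 peaks and a LACZ 1 peak of 3.32, all inside the gene.

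**Figure D5:**
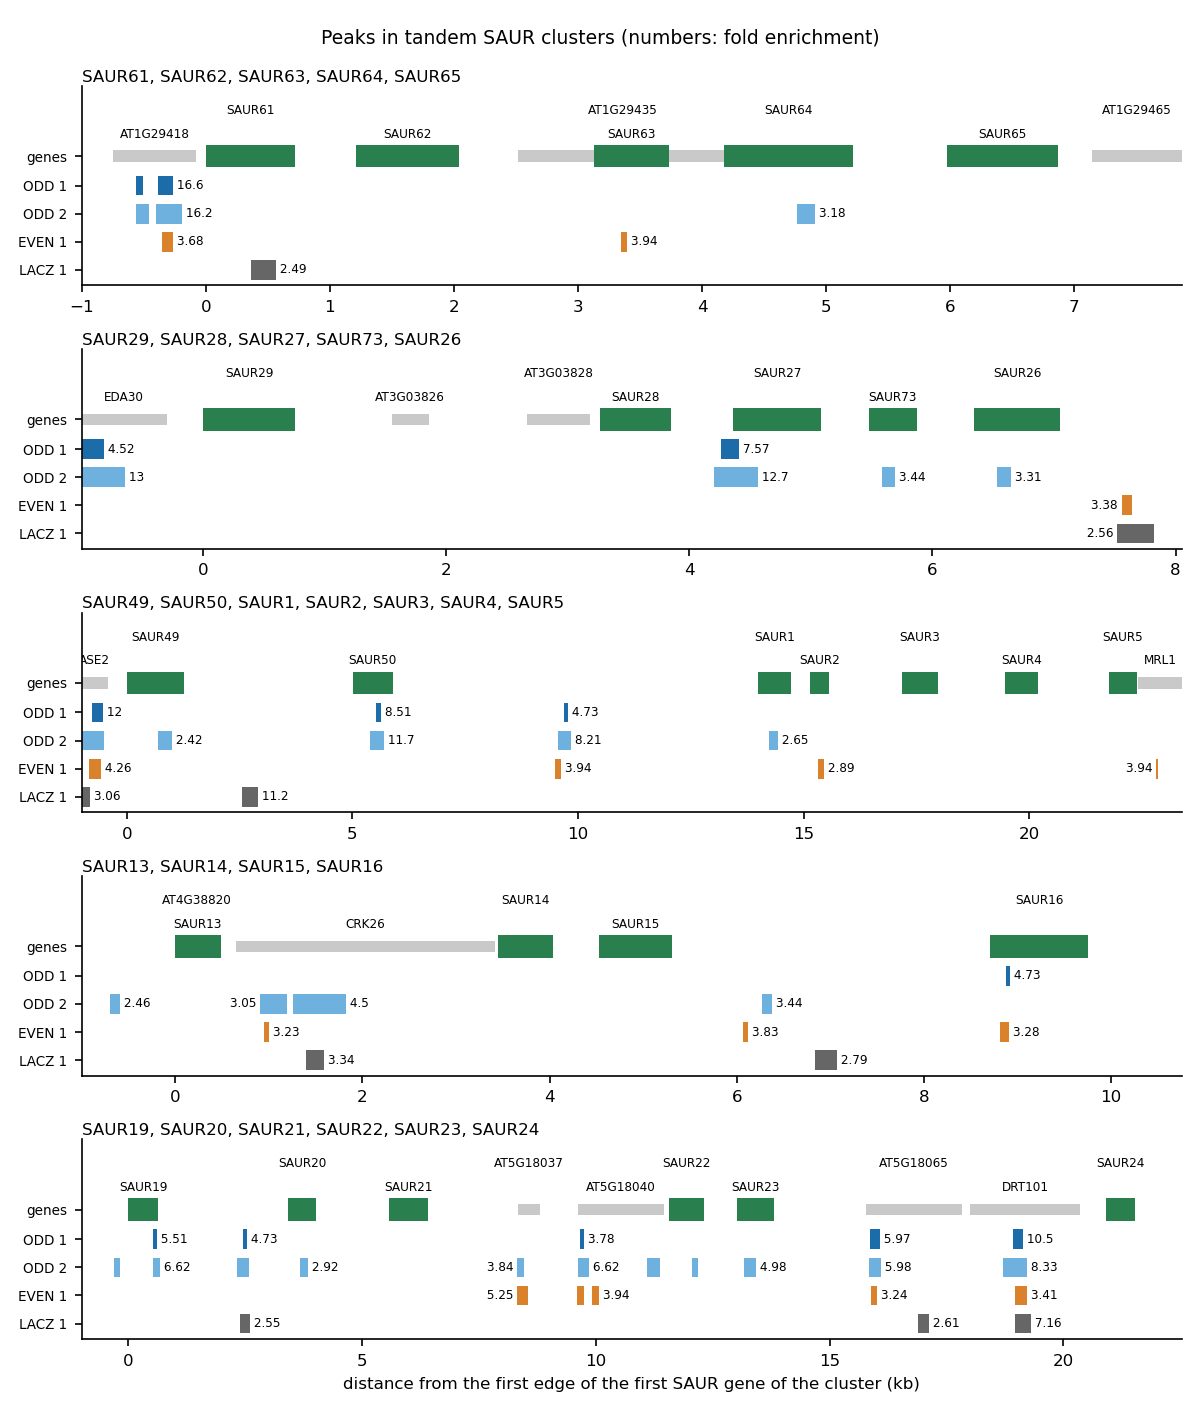
Maps of the 5 larger tandem clusters, with distance from the first edge of the first SAUR gene in kb on the horizontal axis, SAUR genes in green, other genes as thin grey bars, and 1 row of peaks for each list; numbers are the authors' fold enrichments, left out where there is no room, and peaks farther than 1 kb from any SAUR gene are drawn too. The EVEN 1 peaks drawn in the SAUR19 to SAUR24 cluster lie over the genes in between, more than 1 kb from each SAUR gene, and SAUR21 and SAUR24 have no peak within 1 kb.

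The genes without a peak in any list were SAUR65, SAUR3, SAUR4, SAUR14, SAUR21 (AT5G18030) and SAUR24 in the clusters and SAUR10, SAUR32 and SAUR48 among the single genes. SAUR32 is known from the apical hook and SAUR10 from the growth of stems and branches. A gene without a peak is one at which no peak was called at the depth of these libraries.

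Other genes of the auxin route were counted with the same window, by family names and not by their peaks. Over all protein-coding genes the shares were 48.9% in ODD 1, 92.8% in ODD 2, 55.3% in EVEN 1, and 41.3% in LACZ 1, with 11.1% for a candidate region, and these families hold few genes, so nothing is read from counts near those shares. All 6 TIR1/AFB auxin receptors had a peak in ODD 1 and in ODD 2, 3 had one in EVEN 1 and 3 in LACZ 1, and none had a candidate region. Of 29 Aux/IAA repressors, 19 had a peak in ODD 1, 28 in ODD 2, 19 in EVEN 1 and 8 in LACZ 1, and 6 had a candidate region, including IAA2 and IAA28. Of 23 ARF transcription factors, 15 had a peak in ODD 1, 22 in ODD 2, 14 in EVEN 1 and 17 in LACZ 1, with candidate regions at ARF6 and ETT. The ARF genes had a median length of 3567 bp and the Aux/IAA genes 1740 bp, against 815 bp in SAUR genes.

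The GH3 family includes enzymes that conjugate auxin or jasmonate to amino acids, and only genes with a GH3 number as a name were counted. Of these 10 genes, 5 had a peak in ODD 1, 10 in ODD 2, 7 in EVEN 1 and 8 in LACZ 1, with a candidate region at GH3.1. Their 50% in ODD 1 was near the 48.9% of all genes. The partners of SAUR proteins were counted as well. Of 11 plasma membrane H+-ATPase genes, 6 had a peak in ODD 1, 11 in ODD 2, 10 in EVEN 1 and 7 in LACZ 1, with a candidate region at HA4. These shares were 54.5% in ODD 1 (48.9% of all genes), 90.9% in EVEN 1 (55.3%) and 63.6% in LACZ 1 (41.3%), for genes with a median length of 5334 bp. Of 9 PP2C.D phosphatase genes, 6 had a peak in ODD 1 (66.7%), 8 in ODD 2 (88.9%), 3 in EVEN 1 (33.3%) and 5 in LACZ 1 (55.6%), with candidate regions at AT3G55050 and AT5G06750. Over all genes the shares were 48.9%, 92.8%, 55.3% and 41.3% in the same order of lists, and 11.1% for a candidate region.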

How the data were processed

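APOLO ChIRP-seq libraries made with ODD (2), EVEN (1) and LACZ (1) probes were used. The authors deposited 1 peak list for each library, on TAIR10. The submitters' processing notes name CASAVA 1.8.2, Trimmomatic, Bowtie2 and MACS2; MACS2 settings were not found in the labels or headers. A peak has a pileup signal, a fold enrichment ratio over local background, and a p-value and a q-value as −log10, per the file headers. Read totals were not used. The background of a peak was estimated as (pileup + 1)/fold − 1. Relative fragment numbers are the lowest such background divided by the shortest peak.

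From these, peaks on the 5 nuclear chromosomes were overlapped (at least 1 bp) with genes of a RefSeq table (TAIR10.1, with no strand), whose positions matched the peaks in 10 of 10 chromosome parts. Python 3.11.15, pandas 2.3.3 and scipy 1.17.1 were used, and the overlap code was tested on simulated data. Named genes were those with a candidate region, peaks in all 4 lists, LACZ 1 alone, the 5 highest folds in each list, tandem clusters of 3 or more, and members of known function; others were named after their values were seen. Members, lists and rules were chosen with earlier results of these data known. Alternatives covered thresholds, list length, windows, gaps, names and leaving out each ODD library; length-matched genes by quartiles and leaving out AT5G01830 were added after seeing the data. Sequence comparisons were not run.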

Additional observations from a re-analysis of the deposited data

How the results depend on the processing

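ODD 1 had 27 SAUR genes with a peak, ODD 2 had 64, EVEN 1 had 43 and LACZ 1 had 19, with 5 candidates. In the brackets below, the share of SAUR genes stands first and that of all protein-coding genes second. With −log10 q of at least 5, ODD 1 had 13 (16.2 and 28.8%), EVEN 1 5 (6.25 and 12.0%) and LACZ 1 8 (10 and 16.7%). There was 1 candidate (1.25 and 2.98%), so the shares of all genes were also low at this threshold. With all lists cut to the length of the shortest by q-value, ODD 2 had 24 (30.0 and 44.7%) and EVEN 1 28 (35.0 and 38.8%), with 3 candidates (3.75 and 7.42%). With the gene body alone, ODD 1 had 15 (18.8 and 34.4%), EVEN 1 28 (35.0 and 41.6%) and LACZ 1 10 (12.5 and 29.4%), with 2 candidates (2.50 and 7.42%). With 2 kb on either side there were 29 in LACZ 1 (36.2 and 53.2%) and 11 candidates (13.8 and 15.1%). With the nearest gene only there were 12 in LACZ 1 (15.0 and 30.9%) and 2 candidates (2.50 and 8.08%). Of the 16 members that have a SAUR name as main symbol, ODD 1 held 6, ODD 2 14, EVEN 1 5 and LACZ 1 4, with 0 candidates. No LACZ 1 peak within 500 bp left 3 candidates (3.75 and 9.58%). Leaving out 1 ODD library gave 5 (6.25 and 11.1%) to 18 candidates (22.5 and 31.9%). It gave 27 (33.8 and 48.9%) to 64 genes (80.0 and 92.8%) with a peak in the ODD libraries left. The construction of these settings changes the number of peaks or genes; no other cause was tested. The other counts stayed within 1.5 times, including 9 to 11 clusters for gaps of 20 kb or 5 kb and every count without AT5G01830.

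In each setting that kept 80 members, the SAUR share was below that of all genes, with 1 exception, EVEN 1 with 2 kb flanks (72.5 against 68.0%). No paired analysis was possible because the groups share a single replicate number. Estimated depth differed between libraries, with relative fragment numbers of 1 in ODD 1 and 2.94 in ODD 2. It was also 1.31 in LACZ 1, which had peaks at fewer SAUR genes (19) than ODD 1 (27). The part of depth in the counts was not tested. EVEN and LACZ had 1 library each, so the spread between libraries of these probes is unknown.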
